A study of Mus musculus with 12 samples.

Results

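Embryos labelled Dcaf11 knock out were compared with embryos labelled wild type, across all genes. The libraries were chosen by their titles, 3 named KOEmbryo and 2 named controlEmbryo, which is 5 of the 12 libraries of the series. All embryos were of the C57BL/6 strain, and the genotype is the only labelled difference. RNA with a poly(A) tail was amplified and sequenced by Smart-seq2, which copies whole transcripts from samples as small as single cells. The labels give neither the stage, the sex, the parents' genotype, the deleted part of Dcaf11 nor how many cells or embryos went into a library. No label says that replicates came from separate embryos, so a p-value here reflects library-to-library spread that may be technical. Of 22619 gene symbols, 10300 reached 1 FPKM in at least 2 of the 5 libraries and were tested. The deposited unit, FPKM, divides the reads of a gene by its length and by the reads of the library. In whole embryos, fewer cells of a type and less RNA per cell cannot be told apart.

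DCAF11 picks the targets of a ubiquitin ligase built on CUL4 and DDB1, in which a cullin scaffold and a RING protein pass ubiquitin to a protein that the receptor has bound. A mouse embryo starts with RNA stored in the oocyte, clears much of it, and switches on its own genome around the two-cell stage. Products of the early zygotic genome serve ribosome assembly, RNA handling and mitochondria before the first lineages form.

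Dcaf11 (mm9 chromosome 14, 56178866 to 56188902) had 2.82 and 14.3 FPKM in the 2 controls, against 3.99, 2.84 and 0.184 in the 3 KO embryos. KO embryos 1 and 2 lie above the lower control, the latter barely, and only KO embryo 3 lies below both. The log2 fold change, KO minus control with all such values taken on log2(FPKM + 1), was −1.43 ± 0.95 (SE) and did not pass the test (limma, adjusted p = 0.370). The value covers the whole gene, so without knowledge of the deletion it checks no label.

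A gene was called at an adjusted p under 0.05 in limma, fitted on the 8 embryo libraries, with 3 further Dcaf11 knockout libraries titled as arrested adding to the estimate of the spread. By this rule 867 of 10300 genes (8.42%) were called, 645 higher (6.26%) and 222 lower (2.16%) in the KO embryos. A fit of only the 5 libraries called 228 (2.21%), 177 higher (1.72%) and 51 lower (0.495%). Scaling each library by median of ratios moved the median change over all genes (log2) from 0.38 to −0.07, a shift of −0.44, and gave 797 calls (7.74%), 286 higher (2.78%) and 511 lower (4.96%). The higher share of calls was 74.4% as deposited and 35.9% so scaled. In all 3 fits 124 genes were called higher (1.20%) and 45 lower (0.437%). The fits share their libraries and are not independent checks. Scaling moved changes downward and kept all 222 falls, so for a fall the scaled fit added no check. A gene under 1 FPKM in every library of a group passed the filter through the other group alone. Its direction was thus fixed, and its calls are no support. Changes are best read against the all-gene median, and genes below that were called in all 3 fits are described as such.

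**Figure D1:**
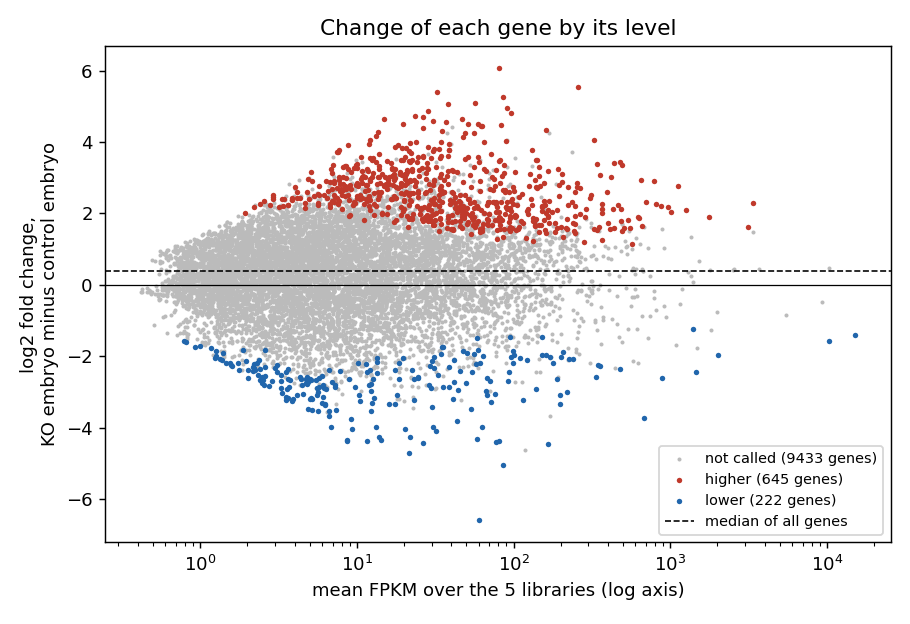
Each point is 1 of the 10300 genes tested, with its mean FPKM over the 5 libraries on a log axis and its log2 fold change, KO embryo minus control embryo. The 645 genes called higher and 222 called lower are coloured, and the dashed line is the median of all genes, 0.38.

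The 2 control libraries differed from each other more than the KO libraries did, by a median absolute log2 difference of 1.16 against 0.50 to 0.63. The fit pools the spread of all embryo groups. It can therefore understate the error of the control mean, and its p-values may be too small. Across the genes tested, which are not independent replicates, log2 values correlated at r = 0.722 between the controls and at 0.854 to 0.893 among the KO embryos. Control 1 had 6573 genes at 1 FPKM or more and control 2 had 10291, against 8535 to 9629 in the KO embryos. The 10 most abundant genes held 27.0% and 23.8% of FPKM in the controls and 14.0% to 16.0% in the KO embryos. Relative depth, as deposited coverage per FPKM, was 2.01 and 1.22 in the controls and 0.585 to 1.32 in the KO embryos. Calls moved with abundance and length: the share called higher went from 0.275% of genes under 3 FPKM to 28.2% of those at 300 FPKM or more, and it was 14.6% of genes under 1000 bases but 4.62% of those of 3000 bases and over. Called-lower shares over the same length classes were 3.50% and 1.15%. Without control 2 the calls were 1865, and without KO embryo 1 or KO embryo 3 they were 122 and 120. The part of these differences in the results below was not tested.

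Among the lists examined, those of the two-cell embryo and of the maternal complex had the most members called lower. List counts are to be read beside all genes tested, of which 6.26% were called higher and 2.16% lower, with a median of 0.38. In short lists, counts of 0 or 1 do not stand out from those shares. Of 15 tested genes of the subcortical maternal complex and its Nlrp relatives, 3 fell (20%, against 2.16% of all genes) and 0 rose. The oocyte stores these for the first cleavages, and their median log2 fold change was −1.63. Zbed3 (mm9 chromosome 13, 96095192 to 96107796), a member of the complex that affects how the spindle is placed, was the most abundant. It stood at 1870 and 3896 FPKM in the controls against 626, 442 and 448 in the KO embryos (log2 fold change −2.43 ± 0.40, adjusted p = 0.00965). As in every gene called lower, all KO values lay below the lower control, and the gene was called in all 3 fits. Nlrp9b was at 20.6 and 11.1 FPKM against 3.69, 0.529 and 0.584, and Nlrp4a at 46.8 and 52.1 against 12.5, 3.39 and 8.54. Both fell in the 8-library fit but not in the fit of 5 libraries, and they have close relatives with which reads may be shared. The core members did not pass: Ooep was at 6.49 and 23.5 FPKM against 6.40, 8.52 and 14.9, Nlrp5 at 2.31 and 13.8 against 7.42, 3.15 and 5.90, and Padi6 at 1.44 and 13.5 against 9.66, 3.63 and 8.86.

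Genes of the zona pellucida and of oocyte growth, a list that holds secreted factors, nuclear proteins and a receptor, were not called. Of 11 tested, 0 passed in the 8-library fit (limma; median −0.48), while 2 were called lower in the fit of 5 libraries. Bmp15, an oocyte growth factor, was at 287 and 548 FPKM against 91.6, 86.6 and 96.3 (adjusted p = 0.0550), whereas its partner Gdf9 was at 38.5 and 156 against 82.6, 36.5 and 65.7. Zp3, a zona pellucida protein, was at 52.3 and 27.9 FPKM against 39.5, 27.0 and 23.0. Genes of mRNA storage and decay also gave 0 calls among 26, with a median of −0.57. Btg4, an adaptor that brings the CCR4-NOT deadenylase to maternal mRNA, was at 527 and 1698 FPKM against 210, 194 and 242 (adjusted p = 0.0627). Cnot6l, a deadenylase subunit of that complex, was at 125 and 103 FPKM against 34.4, 46.5 and 31.3 (adjusted p = 0.0707). Cnot8, of the same list, went the other way, at 19.8 and 53.8 FPKM against 89.15, 73.4 and 99.1, and was not called. With median-of-ratios scaling 4 genes of this list and 2 of the zona and oocyte growth list passed, all lower.

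Of 25 two-cell genes 8 fell (32%) and 1 rose (4%), against 2.16% and 6.26% of all genes. The list's median was −1.20, against 0.38 over all genes. Usp17lc, of a deubiquitinase family, was at 184 and 99.3 FPKM against 18.8, 11.1 and 20.9, and Gm13109 at 74.3 and 46.1 against 11.3, 7.24 and 5.11. Gm5662 stood at 269 and 499 FPKM against 79.9, 58.8 and 43.1. These 3 were called lower in all 3 fits, as was Zscan4c, at 112 and 262 FPKM against 14.1, 2.29 and 10.98. Members of these families are near-identical, so single values are uncertain. The list did not move as a block. Zfp352 was at 148 and 237 FPKM against 39.5, 97.5 and 119 (adjusted p = 0.248), and Spz1 at 103 and 25.3 against 45.8, 38.5 and 55.5. Pramel7 rose, from 21.6 and 38.6 FPKM to 174, 157 and 105, but not with median-of-ratios scaling (adjusted p = 0.0641).

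The other genes that fell most in absolute level included Prdx2, a peroxiredoxin that removes hydrogen peroxide. It was at 210 and 666 FPKM in the controls against 36.1, 30.5 and 42.4 in the KO embryos (log2 fold change −3.34 ± 0.49, adjusted p = 0.00762). Of 21 antioxidant genes it was the only one called lower. Txnrd1, a thioredoxin reductase, was the only one called higher, at 0.419 and 2.27 FPKM against 11.8, 13.0 and 16.8. It was not called in the fit of 5 libraries (adjusted p = 0.0806). Each is 4.76% of the list, beside 2.16% lower and 6.26% higher over all genes. Wee2, the oocyte kinase that inhibits CDK1, was at 308 and 270 FPKM against 30.1, 46.6 and 38.8. Of 31 cyclin and CDK genes it was the only one to fall (3.23%, near the 2.16% of all genes). Ccnh, a subunit of the CDK-activating kinase, rose from 2.33 and 9.63 FPKM to 29.9, 25.8 and 31.9. It was called neither in the fit of 5 libraries (adjusted p = 0.087) nor after scaling (0.0550). The transcripts AA545190 (879 and 2207 FPKM against 73.8, 169 and 92.2), C86187 (943 and 2697 against 312, 268 and 215) and D16Ertd519e (432 and 345 against 12.6, 24.5 and 15.2) fell in all 3 fits. Without control 1, Wee2 (adjusted p = 0.0660) and D16Ertd519e (0.0821) lost the call, as did Zscan4c (0.0505), Gm5662 (0.0609) and Gm13109 (0.0702) of the two-cell list. Without control 2, C86187 (0.117), Zscan4c (0.0634) and Gm5662 (0.0910) lost it.

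Single genes with the largest falls in log2 terms, systematic names left out, are described next, picked by size and not as a class. Zfp281 (mm9 chromosome 1, 138521478 to 138526968), a zinc-finger regulator known from pluripotent cells, was at 15.0 and 28.03 FPKM in the controls against 0.0551, 0.0574 and 0.0670 in the KO embryos. Sox11, of the SRY-box family, was at 221 and 54.7 FPKM against 4.71, 9.93 and 1.76. Sp8, a zinc-finger factor of limb and brain development, was at 53.3 and 16.7 FPKM against 0.424, 0.400 and 0.850. Hesx1, a homeobox repressor of forebrain and pituitary development, was at 121 and 76.3 FPKM against 12.4, 5.40 and 2.81. Nfkbia, the inhibitor of NF-kB, was at 20.6 and 11.7 FPKM against 0, 0.650 and 0.303. The log2 fold changes of these 5 ran from −4.35 ± 0.54 for Zfp281 to −3.68 ± 0.60 for Nfkbia, with adjusted p from 0.00346 to 0.0441, and all 5 were called in all 3 fits. Without control 1, Sox11 (adjusted p = 0.0750) and Hesx1 (0.172) lost the call, and Hesx1 lost it without control 2 as well (0.0692). Pacsin2, a membrane-bending protein of endocytosis, was at 54.8 and 70.1 FPKM against 3.38, 0.332 and 3.42. Tmem213 was at 30.9 and 12.4 FPKM in the controls and listed at 0 in all 3 KO embryos. Prl8a2, a prolactin-family hormone of the decidua, was at 43.2 and 99.3 FPKM against 2.98, 2.72 and 4.09. These 3 genes were called lower in all 3 fits and in each fit with 1 KO or arrested library left out. Tmem213, Zfp281, Sp8 and Nfkbia were under 1 FPKM in every KO embryo. They passed the filter through the controls alone and could only fall.

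**Figure D2:**
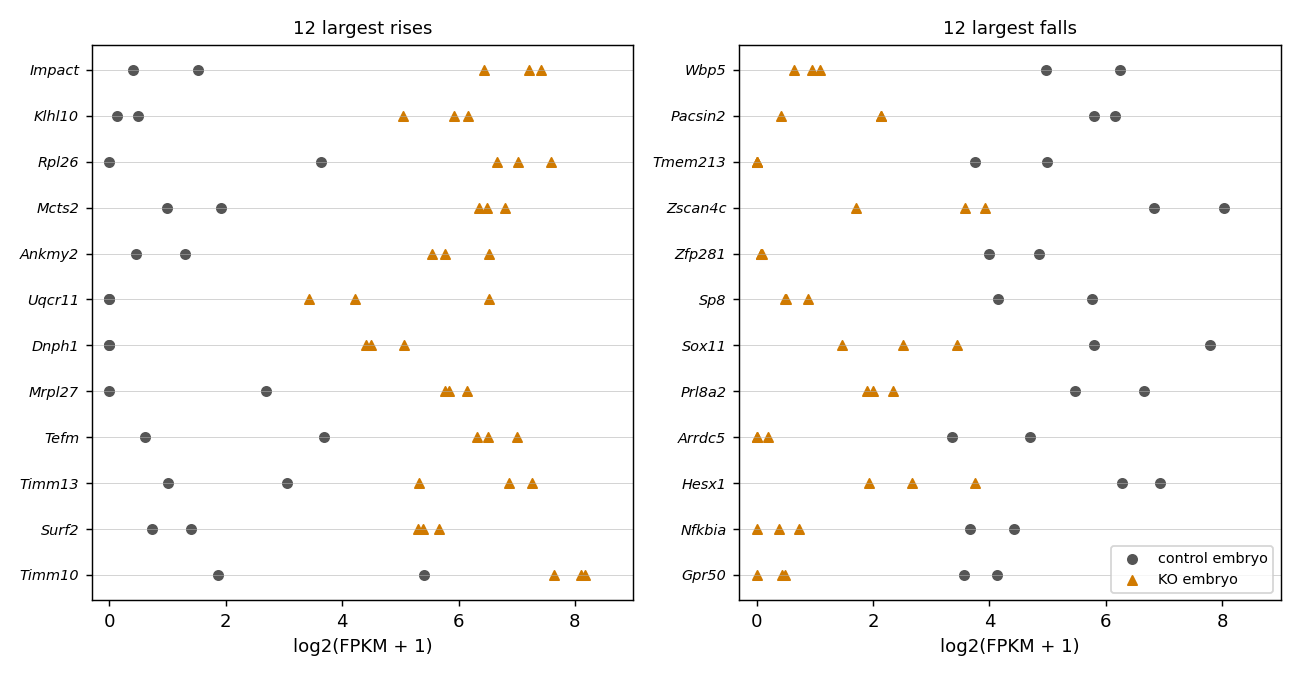
Values are log2(FPKM + 1) in each of the 2 control and 3 KO embryo libraries. Shown are the 12 genes that rose most and the 12 that fell most, with systematic names such as Mir363 left out. Genes were chosen so that the KO embryo points lie on 1 side of both control points. The controls of Rpl26, Mrpl27, Tefm and Timm10 lie far apart.

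Of the 12 genes that rose most, Rpl26, Mrpl27, Uqcr11, Tefm, Timm13 and Timm10 serve the ribosome or mitochondria and are described below. Impact and Mcts2, which are imprinted, also come later, and the rest are given here. Klhl10, which encodes a substrate adaptor of CUL3 ligases known from the male germ line, was at 0.102 and 0.402 FPKM in the controls against 70.5, 59.9 and 32.0 in the KO embryos (5.40 ± 0.56, adjusted p = 0.00222). Dnph1, a nucleotide hydrolase, was listed at 0 in either control, against 20.3, 32.3 and 21.6 FPKM. Ankmy2 was at 0.379 and 1.45 FPKM against 45.7, 90.6 and 53.7, and Surf2 at 0.667 and 1.64 against 40.9, 38.5 and 49.7. These 4 genes, low in both controls, were called higher in all 3 fits and in each fit with 1 KO or arrested library left out. Klhl10 and Dnph1 were under 1 FPKM in both controls, passed the filter through the KO embryos alone and could only rise. Among abundant genes, Vimp, a selenoprotein of the endoplasmic reticulum that takes part in clearing misfolded proteins, was at 194 and 295 FPKM against 833, 1128 and 1633 and was called in all 3 fits. Mt1, a metallothionein that binds zinc, was at 369 and 456 FPKM against 1852, 1347 and 2241, and lost the call without control 1 (adjusted p = 0.118) and after scaling (0.129).

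Genes on the X chromosome were called lower more often than the rest. Of 387 tested, 24 (6.20%) were called lower, against 198 of 9913 (2.00%) elsewhere, and 13 (3.36%) were called higher, against 632 (6.38%). This is a description, with no test of the difference. The X share of genes called lower was above the share of all genes in each setting that tested the same 10300 genes: it was 10.3% against 4.96% with median-of-ratios scaling and 2.07% against 0.495% in the fit of 5 libraries. In 16 of the 24 the KO mean was under 1 FPKM, and genes under that level in every KO embryo could only fall. Called lower in all 3 fits were 7: Wbp5, Tmsb4x, Xlr3a, Gpr50, AU015836 and the loci of 2 microRNAs. Wbp5 was at 30.5 and 75.1 FPKM against 0.937, 1.13 and 0.562, and Tmsb4x, which encodes the actin-binding thymosin beta 4, at 156 and 198 against 51.4, 29.9 and 49.2. Xlr3a, of an X-linked family of lymphoid and germ-line genes, was at 54.7 and 76.8 FPKM against 13.1, 8.81 and 10.2. Tmsb4x lost the call without control 1 (adjusted p = 0.0971) and without control 2 (0.0921), while Gpr50 (0.0702) and AU015836 (0.0545) lost it without control 1. Timm8a1 and 1600025M17Rik, also X-linked, were called higher in all 3 fits.

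Genes that tell the sexes apart were examined beside the X-linked values. Eif2s3y, on the Y chromosome, was listed at 0 in either control, against 2.78, 8.86 and 2.92 FPKM with the knockout (adjusted p = 0.0301, and 0.118 in the fit of 5 libraries). Being at 0 in both controls, it could only rise. Ddx3y, Uty and Kdm5d were also listed at 0 in both controls and were not called. With the knockout Ddx3y was at 0.109, 5.70 and 1.38 FPKM, Uty at 0, 2.36 and 0.713, and Kdm5d at 0, 1.95 and 0.387, so that in KO embryo 1 Eif2s3y was nearly the only one of the 4 with a value above 0. Xist, the RNA that silences 1 X chromosome in females, was at 0.649 and 2.03 FPKM against 5.52, 7.29 and 3.67 and was not called. The part of sex in the X-linked values was not tested. Impact and Mcts2, which are used from the paternal allele alone, were also near 0 in both controls, at 0.335 and 1.86 FPKM and at 0.996 and 2.77 FPKM. With 2 control libraries, a difference between the groups in sex, stage or how the embryos were obtained cannot be told apart from the genotype, for any gene described here.

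The 2 microRNA loci lie side by side on the X chromosome, Mir363 at mm9 50094870 to 50094944 and Mir92-2 at 50095015 to 50095105, at the end of a cluster related to miR-17-92. Mir363 was at 238 and 61.3 FPKM in the controls against 0, 0 and 1.12 in the KO embryos (log2 fold change −6.57 ± 1.07, adjusted p = 0.00944). Mir92-2 was at 44.2 and 13.2 FPKM against 0.564, 0 and 0.174 (−4.37 ± 0.71, adjusted p = 0.00944). The main mature products are printed because they share a seed, bases 2 to 8 in capitals, AUUGCAC. They come from RefSeq (GRCm38.p6), 5′ to 3′.
mmu-miR-363-3p: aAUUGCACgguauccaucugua
mmu-miR-92a-3p: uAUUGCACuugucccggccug
mmu-miR-92a-2-5p: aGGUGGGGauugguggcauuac
The third sequence is the other arm of the Mir92-2 hairpin, and its seed, GGUGGGG, differs. The libraries were made from poly(A) RNA, so the values count reads over the hairpin loci and not the mature microRNAs. The loci are short, and a high FPKM can rest on few reads. Mir92-2 was under 1 FPKM in every KO embryo and could only fall.

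**Figure D3:**
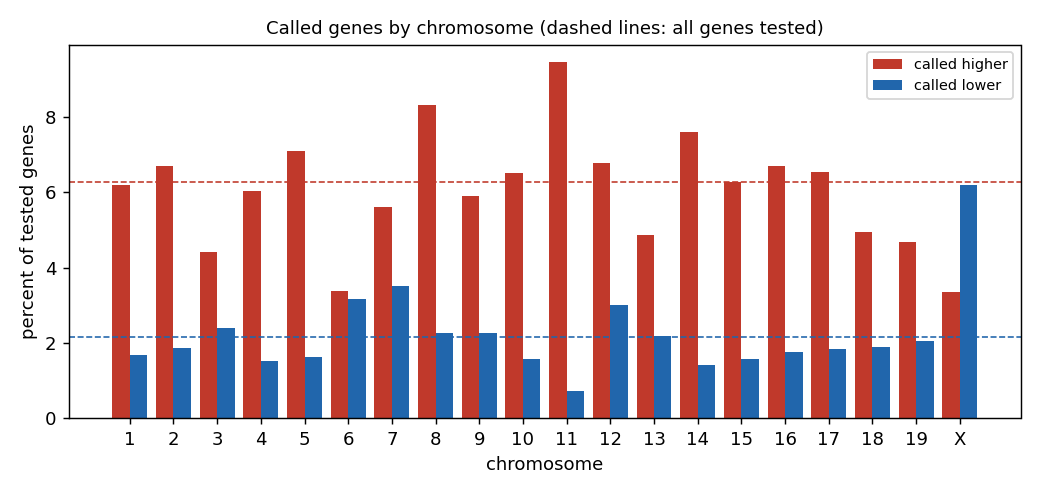
Percent of the tested genes of each chromosome that were called higher (red) or lower (blue), with dashed lines at 6.26% and 2.16%, the shares of all genes tested. The X chromosome has the highest share called lower, 6.20%, and chromosome 11 the highest share called higher, 9.44%.

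The ribosomal lists had the highest medians. Of 41 tested genes of ribosome biogenesis, 15 rose (36.6%, against 6.26% of all genes) and 0 fell. Their median was 1.79 as deposited and 1.16 with median-of-ratios scaling. Nhp2 (mm9 chromosome 11, 51433275 to 51437216), a core protein of the H/ACA particles that modify ribosomal RNA, was at 126 and 127 FPKM in the controls against 1024, 698 and 1286 in the KO embryos (log2 fold change 2.93 ± 0.36, adjusted p = 0.00346). Mrto4, which shapes the stalk of the large subunit, was at 13.5 and 17.8 FPKM against 134, 82.6 and 106. Gnl3, the nucleolar GTPase nucleostemin, was at 12.1 and 15.8 FPKM against 70.2, 79.4 and 83.2. Nop16 was at 15.3 and 31.6 FPKM against 154, 163 and 105, and Ddx21, a nucleolar helicase, at 16.0 and 14.7 against 87.3, 65.3 and 94.6. The control values of Nhp2, Gnl3 and Ddx21 lay close together, and these 5 genes were called higher in all 3 fits. Polymerase I genes did not pass: Polr1a was at 1.92 and 0.441 FPKM against 7.64, 4.46 and 6.62, and Polr1d at 242 and 196 against 357, 359 and 458.

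The ribosome itself followed. Of 83 genes for cytosolic ribosomal proteins 39 rose (47.0%, against 6.26% of all genes) and 0 fell (median 1.86). Of the 39, 13 were called in all 3 fits. Rpl38 was at 1.99 and 1.16 FPKM in the controls against 22.5, 18.5 and 51.0 in the KO embryos (3.50 ± 0.54, adjusted p = 0.00921). Rpl26 was at 0 and 11.5 FPKM against 99.6, 129 and 191. Many of these genes have processed copies elsewhere in the genome that can share reads. Of 44 translation factor genes 12 rose (27.3%) and 0 fell (median 1.24). Eif3a, the scaffold of initiation factor eIF3, was at 41.1 and 31.1 FPKM against 203, 182 and 193, and Abce1, which splits ribosomes after termination, at 8.45 and 3.25 against 47.5, 52.0 and 33.7. Both were called in all 3 fits. Of 19 genes for aminoacyl-tRNA synthetases 1 rose (5.26%, near the 6.26% of all genes). It was Tars, at 0.333 and 1.55 FPKM against 11.9, 11.1 and 9.64 (adjusted p = 0.0313). The list's median of 0.68 fell to 0.07 after scaling.

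The promoters of genes from the 2 lists, ribosome biogenesis and the subcortical maternal complex, differed in their content of CG pairs, so 3 called members of each with an entry in the RefSeq table are printed. Shown are the 120 bases before the start of the gene (GRCm38.p6), 5′ to 3′ on the gene's strand, with each CG in capitals.
Nhp2, chr11:51619653-51619772, plus strand: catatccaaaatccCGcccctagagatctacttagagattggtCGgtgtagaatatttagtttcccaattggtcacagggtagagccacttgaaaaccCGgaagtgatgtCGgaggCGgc
Mrto4, chr4:139352577-139352696, minus strand: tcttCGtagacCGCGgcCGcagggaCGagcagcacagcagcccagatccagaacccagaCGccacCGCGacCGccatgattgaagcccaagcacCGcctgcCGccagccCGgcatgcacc
Gnl3, chr14:31019132-31019251, minus strand: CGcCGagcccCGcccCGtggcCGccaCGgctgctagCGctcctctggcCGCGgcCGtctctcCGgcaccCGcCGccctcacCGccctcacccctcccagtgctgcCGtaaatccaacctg
Zbed3, chr13:95323485-95323604, plus strand: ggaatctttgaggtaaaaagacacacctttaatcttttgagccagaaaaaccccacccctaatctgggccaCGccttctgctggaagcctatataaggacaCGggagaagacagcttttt
Nlrp9b, chr7:20007903-20008022, plus strand: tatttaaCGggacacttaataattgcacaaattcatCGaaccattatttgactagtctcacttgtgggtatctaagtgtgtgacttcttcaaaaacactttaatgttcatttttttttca
Nlrp4a, chr7:26434993-26435112, plus strand: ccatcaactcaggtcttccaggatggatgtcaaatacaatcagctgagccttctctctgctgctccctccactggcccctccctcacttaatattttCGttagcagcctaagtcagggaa
Over the full 300 bases of the table, 250 before to 50 after the start, the median number of CG pairs was 21 in the 36 ribosome biogenesis genes with a promoter and 2 in the 14 of the maternal complex. It was 21 as well over the 8191 tested genes with a promoter, 79.5% of those tested, and 7 over all 27025 promoters of the table. The letters ACTTCCG, the core of sites for ETS factors, were searched on both strands. They were in 15 of the 36 (41.7%), in 0 of the 14, in 14.8% of tested genes with a promoter and in 6.59% of all promoters. Other lists also held them often, at 35.7% for the proteasome and 30.8% for the spliceosome, and the Polycomb and DNA methylation lists held 0. Of the 6 genes printed only Nhp2 held them. These counts describe the lists whole, called and not called members alike, and a match is not a site. Of the 222 genes called lower 169 (76.1%) had a promoter, with a median of 8 CG pairs and ACTTCCG in 5.33%. Of the 645 called higher 516 had a promoter, with a median of 21 CG pairs and ACTTCCG in 23.8%. These shares cover only genes with a promoter in the table.

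Genes for protein import into mitochondria rose in a large share of their list. Of 22 tested, 9 rose (40.9%, against 6.26% of all genes) and 0 fell (median 1.34), and 6 of the 9 were called in all 3 fits. Timm17a (mm9 chromosome 1, 137198112 to 137210314), a channel subunit of the inner-membrane translocase TIM23, was at 47.6 and 81.7 FPKM in the controls against 726, 557 and 767 in the KO embryos (3.42 ± 0.36, adjusted p = 0.00222). In the outer-membrane TOM complex, the receptor gene Tomm22 was at 50.9 and 48.2 FPKM against 343, 282 and 384, and Tomm6 at 66.4 and 46.7 against 357, 292 and 510. Small chaperones of the space between the membranes were also called. Timm13 was at 1.00 and 7.28 FPKM against 153, 38.8 and 116, Timm10 at 2.66 and 41.3 against 287, 198 and 273, and Timm8a1 at 38.1 and 95.0 against 391.7, 353 and 363. Other members were not called: the TIM23 pore gene Timm23 was at 82.8 and 354 FPKM against 349, 153 and 253, the TOM pore gene Tomm40 at 4.14 and 6.02 against 23.1, 6.41 and 9.69, and Timm9, the partner of Timm10, at 59.5 and 23.9 against 61.6, 20.7 and 31.7. With median-of-ratios scaling 2 members were called lower.

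Inside the mitochondrion, 18 of 71 genes for mitochondrial ribosomal proteins rose (25.35%, against 6.26% of all genes) and 0 fell (median 1.57). Mrpl27 was at 0 and 5.45 FPKM against 69.9, 53.4 and 56.3, and Mrpl51 at 14.8 and 31.4 against 123, 89.8 and 128. Tefm, the elongation factor of mitochondrial transcription, rose from 0.536 and 11.9 FPKM to 89.5, 78.8 and 128. Of 67 nuclear genes of the respiratory chain 17 rose (25.37%) and 0 fell (median 1.52). Ndufs5 of complex I was at 0 and 0.381 FPKM against 23.6, 14.9 and 29.7, and Uqcr10 of complex III at 109 and 225 against 1214, 983 and 1406. Uqcr11, also of complex III, was listed at 0 in either control, against 17.7, 9.75 and 90.5 FPKM. Ndufs5 and Uqcr11 were under 1 FPKM in both controls and could only rise. A value of 0 can be a failed estimate here, since other genes of general use were also listed at 0 in single libraries. Enzymes that feed the chain were not called: 0 of 19 genes of the citric acid cycle and pyruvate oxidation (median 0.63, and −0.03 after scaling), 0 of 13 of fatty acid oxidation (0.60) and 0 of 13 of glycolysis (0.17, and −0.50 after scaling). With 6.26% of all genes called higher, counts of 0 in lists this small do not stand out.

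**Figure D4:**
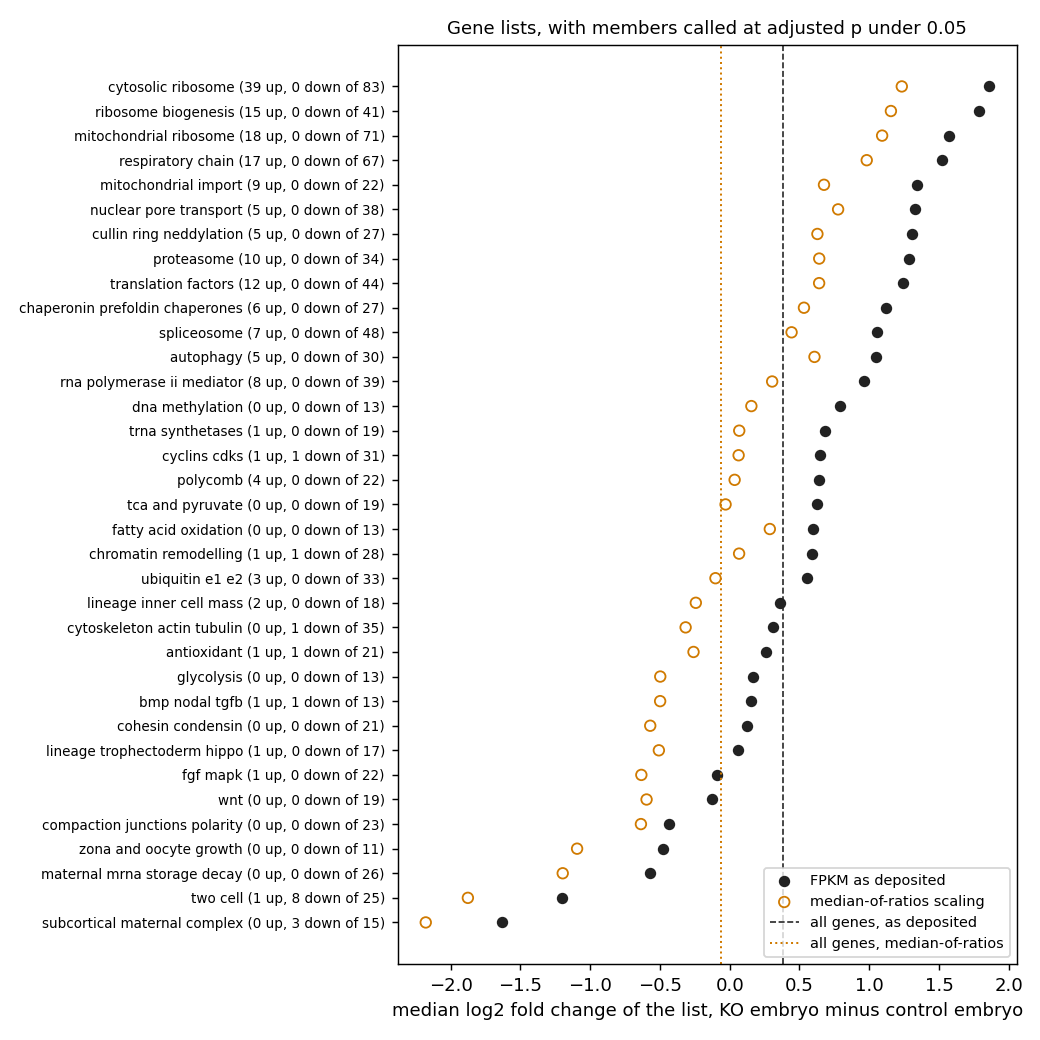
Median log2 fold change, KO embryo minus control embryo, of the tested members of each gene list, as deposited (filled) and with median-of-ratios scaling (open), with the medians of all genes as dashed and dotted lines. Numbers beside each name count the members called higher and lower, and the ribosomal lists have the highest medians and the maternal complex the lowest.

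Genes of cullin ligases and their switch, the pathway to which DCAF11 belongs, gave 5 rises and 0 falls among 27 tested. The share that rose was 18.5%, against 6.26% of all genes. The list's median was 1.31, and 0.63 after scaling. Rnf7 (mm9 chromosome 9, 96371376 to 96379014), the RING protein that works with CUL5, was at 77.1 and 115 FPKM in the controls against 577, 470 and 720 in the KO embryos (2.61 ± 0.35, adjusted p = 0.00475). Gps1, a subunit of the COP9 signalosome that takes NEDD8 off cullins, was at 0.111 and 0.465 FPKM against 22.2, 19.7 and 18.5 (4.05 ± 0.54, adjusted p = 0.00475). These were called in all 3 fits, though Gps1 was under 1 FPKM in both controls and could only rise. Cops6, of the same complex, was at 0.440 and 2.78 FPKM against 12.3, 12.5 and 12.2, and the elongins Tceb2 and Tceb1, adaptors of CUL2 and CUL5, at 53.9 and 89.8 against 221, 205 and 278 and at 219 and 265 against 849, 460 and 965. The 3 were called in the 8-library fit but not in all 3 fits. The scaffold and adaptor of the DCAF11 ligase itself did not pass. Ddb1 was at 23.2 and 12.2 FPKM against 24.9, 13.3 and 14.0 (adjusted p = 0.992), Cul4b at 27.4 and 74.2 against 35.2, 33.9 and 39.0 (0.744) and Cul4a at 3.17 and 2.39 against 12.1, 4.76 and 5.60 (0.301). Rbx1, their RING protein, was at 1.69 and 105 FPKM against 95.0, 105 and 168. The values of these 4 genes overlapped between the groups, Cul4a excepted.

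Downstream of ubiquitin, 10 of 34 proteasome genes rose (29.4%, against 6.26% of all genes) and 0 fell (median 1.29). Psma6 of the core ring was at 19.2 and 13.5 FPKM against 165, 110 and 200, and Psmd7 of the lid at 36.2 and 48.0 against 305, 275 and 307. Of 33 ubiquitin-activating and conjugating genes 3 rose (9.09%, near the 6.26% of all genes), among them the conjugating enzyme genes Ube2l3 (15.6 and 33.5 FPKM against 148, 105 and 198) and Ube2o (4.77 and 3.95 against 36.2, 26.3 and 28.2). The list's median of 0.55 turned to −0.10 with scaling, where 2 members were called lower. Of 27 chaperone genes 6 rose (22.2%), among them Tcp1 of the cytosolic chaperonin, at 20.8 and 21.5 FPKM against 112, 108 and 109. Of 30 autophagy genes 5 rose as deposited (16.7%) and 0 with median-of-ratios scaling. Map1lc3b, which coats autophagosomes, was at 1443 and 696 FPKM against 4806, 4277 and 5738.

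Genes of transcription and RNA handling rose in smaller numbers. Of 48 spliceosome genes 7 rose (14.6%, against 6.26% of all genes), and 1, Snrpa1 of the U2 particle, in all 3 fits (23.2 and 42.6 FPKM against 224, 173 and 244). Znhit3, which takes part in assembly of small nucleolar particles, was at 254 and 229 FPKM against 1708, 1180 and 2237 and was called in all 3 fits. Of 39 RNA polymerase II and Mediator genes 8 rose (20.5%), and of 38 nuclear pore and transport genes 5 (13.2%), with 0 of either list in all 3 fits. Ranbp1, a partner of the transport GTPase Ran, was at 1.33 and 5.60 FPKM against 21.8, 123 and 37.8. Kpna1, an importin alpha, was at 24.2 and 29.0 FPKM against 80.0, 96.3 and 89.2 and was not called after scaling. Kpna7, the importin alpha of the oocyte, went the other way, at 11.7 and 9.13 FPKM against 1.64, 0.731 and 1.73, and was called only after scaling (adjusted p = 0.0736 as deposited and 0.0391 scaled).

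Among chromatin genes, 4 of 22 Polycomb genes rose (18.2%, against 6.26% of all genes) and 0 fell (median 0.64, and 0.04 after scaling). Rbbp4, a histone-binding subunit of PRC2 and other complexes, was at 1.30 and 2.24 FPKM against 20.03, 21.8 and 26.5, and Kdm2b, which brings a PRC1 form to CpG islands, at 0.383 and 3.99 against 19.4, 18.9 and 14.2. Genes of the catalytic core were not called. Suz12 was at 357 and 338 FPKM against 300, 313 and 276, Rnf2 at 120 and 110 against 109, 108 and 119, and Ezh2 at 45.3 and 40.5 against 27.7, 55.4 and 30.1. Of 28 chromatin remodelling genes 1 rose and 1 fell, shares of 3.57% each that do not stand out from those of all genes. Smarca2, a SWI/SNF ATPase also called BRM, fell from 91.5 and 142 FPKM to 22.0, 36.8 and 27.5 (adjusted p = 0.0316, not called in the fit of 5 libraries). The alternative ATPase Smarca4 (BRG1) was at 2.69 and 1.47 FPKM against 10.1, 9.72 and 13.0 (adjusted p = 0.0553). Of 13 DNA methylation genes 0 were called, and Dnmt1 was at 0.828 and 2.77 FPKM against 6.93, 4.40 and 2.89.

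Lineage genes gave few calls. Of 18 inner cell mass and pluripotency genes 2 rose (11.1%, against 6.26% of all genes). They were Dppa2, in all 3 fits (48.2 and 47.5 FPKM against 264, 205 and 276), and Dppa5a, not after scaling (620 and 676 against 2986, 1678 and 2853). Their relative Dppa4 was at 70.1 and 80.1 FPKM against 276, 325 and 258 (adjusted p = 0.0662). Pou5f1 was at 0.663 and 8.10 FPKM against 2.06, 1.40 and 1.22, Sox2 at 14.1 and 5.19 against 2.18, 0.296 and 1.14, and Nanog did not exceed 1.46. Of 17 trophectoderm and Hippo genes 1 rose (5.88%, near the share of all genes). It was Tfap2c, from 0.299 and 5.34 FPKM to 24.2, 27.7 and 26.6 (3.24 ± 0.66, adjusted p = 0.0196, not called in the fit of 5 libraries). Cdx2 was listed at 0 in all 5 libraries. Tead4, the factor upstream of Cdx2, was at 0.329 and 0.979 FPKM against 5.37, 5.40 and 5.47 (adjusted p = 0.0933), and its cofactor Yap1 at 60.6 and 71.9 against 67.7, 64.9 and 63.0. Of 6 primitive endoderm genes 0 were called.

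Structure and signalling genes were mostly not called. Of 23 genes of compaction, junctions and polarity 0 passed in the 8-library fit (limma), 0 in the fit of 5 libraries and 1 after scaling. Pard3, a polarity scaffold, was at 136 and 63.9 FPKM against 53.3, 44.8 and 37.9, and Cdh1, the cadherin of compaction, at 17.4 and 10.4 against 5.52, 3.58 and 7.87. Of 35 actin and tubulin genes only Tmsb4x was called. Of 22 FGF and MAPK genes 1 rose (4.55%, near the 6.26% of all genes), the kinase gene Map2k2 (0.907 and 3.58 FPKM against 22.6, 8.33 and 16.8). Of 19 Wnt genes 0 were called. In the BMP and TGF-beta list of 13, the receptor gene Bmpr1a rose (0.234 and 8.21 FPKM against 16.6, 34.4 and 26.6) while Id1, a target gene of the pathway, fell (7.53 and 14.2 against 0.755, 0 and 1.61). Neither was called in the fit of 5 libraries.

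Markers of other cells were counted whole. Of 10 cumulus and granulosa markers 3 were tested and 1, Tnfaip6, was called lower, and the summed level was 26.5 and 21.4 FPKM in the controls against 5.72 to 13.0 in the KO embryos, with Cyp19a1 listed at 0 in 1 control and 1 KO embryo. Of 13 blood markers in the files 7 were tested and 0 called, with sums of 88.4 and 230 FPKM against 264 to 418, led by the neutrophil gene S100a9. Of 9 fibroblast markers 6 were tested and 0 called, with sums of 17.4 and 67.3 FPKM against 59.9 to 93.5. Transcripts of blood and fibroblast markers were thus found in every library, with the lowest sums in control 1. Their source and their part in the results were not tested. Of 8 sperm markers 2 were tested and 0 called.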

How the data were processed

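The deposited files give FPKM, TPM and coverage for every gene. By the submitters' processing notes, the authors used STAR (listed with version 0.6.0), StringTie and DESeq2 with the mouse build mm9; what each did, the annotation and strand use were not given in the sources used here. Tables of the authors' TPM, which are FPKM times 1 factor per library, served as an alternative scaling, and the deposited coverage signal divided by FPKM gave relative depth only; no read counts could be had, so no counting interval is given. FPKM was summed per symbol and rows without a symbol (0.549% to 0.805% of FPKM in the 5 libraries) were left out. Genes with at least 1 FPKM in at least 2 of the 5 libraries were fitted as log2(FPKM + 1), which understates the change of low genes, with limma 3.58.1 in R 4.3.3 with a variance trend (8 libraries, 5 residual degrees of freedom; 3 in the fit of 5 libraries), tested on simulated data, with Benjamini-Hochberg adjustment over all genes tested. Median-of-ratios size factors were 0.513 and 0.924 in the controls and 1.04 to 1.23 in the KO embryos.

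The libraries, the 40 gene lists and the rules were chosen with earlier results of these data known, so no list is independent support. Genes named include Dcaf11 and the 12 largest rises and 12 largest falls called in the fits of 8 and 5 libraries. These 12 each way had at least 10 FPKM in the higher group, groups that did not overlap and no systematic or predicted name. Also named are the 6 largest differences of mean FPKM each way and up to 4 called members per list. Some genes picked by these rules are not reported here. Other members and the X-linked, Y-linked and microRNA genes were picked after their values were seen. Transcript lengths were matched by symbol to GENCODE (GRCm38) for 94.4% of genes. Tables were made with pandas 2.3.3 and numpy 2.4.6 in Python 3.11.15, and figures with matplotlib 3.10.9.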

Additional observations from a re-analysis of the deposited data

How the results depend on the processing

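The counts of genes called (645 higher, 222 lower) depended on the setting. They were 515 and 93 with a pseudocount of 0.1, 223 and 66 with no filter on low values (19048 genes tested), 539 and 166 with TPM, 286 and 511 with median-of-ratios scaling, and 177 and 51 with only the 5 libraries in the fit. Leaving out 1 library at a time gave 97 to 1527 higher and 23 to 338 lower. The ends were KO embryo 1 (97 and 25) or KO embryo 3 (97 and 23) left out and control 2 left out (1527 and 338). Without control 1 the counts were 407 and 197, without KO embryo 2 they were 282 and 57, and without KO arrest 2 and 3 they were 347 and 98 and 422 and 124. Over all genes the median change (log2) was 0.02 without control 1 and 0.83 without control 2. With the replicate number as a block the counts were 92 and 14; same-numbered libraries correlated at −0.109 to 0.0367, so the numbers do not pair them. Of 110 named genes that were called, 0 changed sign in any setting. With 1 library left out this was fixed beforehand, since the groups did not overlap in any called gene. The call was lost in 16 with the other pseudocount, 52 without the filter, 8 with TPM and 30 with median-of-ratios scaling. It was lost in 37 with 5 libraries, 69 with the block and 9 to 66 with 1 KO or arrested library left out. A lone control left in a fit takes the spread of the other embryo groups. The depth in reads is unknown.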

Other observations

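Imprinted genes, of which only the allele of 1 parent is used, were listed after Impact and Mcts2 had been seen among the largest rises, so their counts are a description. Of 28 genes known to be expressed from the paternal allele 13 were tested. In the 8-library fit (limma) 4 rose and 0 fell, with a median log2 fold change of 1.42. Over all genes 6.26% were called higher and 2.16% lower, with a median of 0.38. Zrsr1 and Kcnq1ot1 passed the filter through the KO embryos alone and could only rise, so the counts are not support. Impact, a regulator of translation, was at 0.335 and 1.86 FPKM in the controls against 85.9, 170 and 147 in the KO embryos (adjusted p = 0.00222). Mcts2, a retrogene within an intron of another gene, was at 0.996 and 2.77 FPKM against 111, 89.0 and 80.7 (0.00222). Zrsr1, a splicing factor retrogene, was at 0.195 and 0.714 FPKM against 10.1, 5.04 and 12.8 (0.0231). Usp29, a deubiquitinase gene beside Peg3, was at 9.02 and 7.29 FPKM against 51.1, 39.0 and 37.5 (0.0380). Impact and Mcts2 were called in all 3 fits, and Zrsr1 and Usp29 were not.

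All KO embryos lay above both controls in 7 of the 13 paternally expressed genes tested, against 26.5% of all genes tested. That count includes Impact and Mcts2, which prompted the list. Of the 7, 3 did not pass. Kcnq1ot1, a long noncoding RNA, was at 0.0447 and 0.0883 FPKM against 1.60, 2.97 and 0.835 (adjusted p = 0.108), and Gab1, an adaptor of growth factor receptors, at 0.112 and 1.88 against 10.3, 16.5 and 4.29 (0.0606). Mest, a hydrolase gene of the mesoderm, was at 0.404 and 9.66 FPKM against 18.4, 11.8 and 11.6 (0.178). Peg3, Plagl1, Airn, Phf17 and Zdbf2 overlapped between the groups, and Dio3 was lower in the KO embryos, at 3.18 and 1.18 FPKM against 0.124, 0.0688 and 0.450. In the arrested knockout libraries Impact was at 19.4, 11.5 and 15.2 FPKM and Mcts2 at 14.5, 4.85 and 9.98, between the other groups, while Zrsr1 was at 0.379, 0.262 and 0.0513, as low as in the controls.

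Of 17 genes expressed from the maternal allele 9 were tested and 0 were called (median −0.37). Phlda2, a growth regulator of the placenta, was at 244 and 274 FPKM in the controls against 399, 318 and 142 in the KO embryos, and Commd1 at 35.1 and 9.57 against 3.43, 1.01 and 4.33 (adjusted p = 0.0546). FPKM cannot tell which allele a read came from. Whether the control libraries differed from the KO libraries in parental genome, sex or stage was not tested and cannot be told apart from the genotype.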
